A study of Mus musculus with 4 samples.

Results

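Hox genes encode homeodomain transcription factors that lie in 4 clusters of the mouse genome, HoxA, HoxB, HoxC and HoxD. Genes at the same place in different clusters form paralogue groups, numbered from 1 at the 3′ end to 13 at the 5′ end, and during development the low-numbered groups are used in anterior and the high-numbered ones in posterior and distal parts of the body. Adult mesenchymal and muscle cells often keep the set of Hox genes of the place they came from, and Polycomb and Trithorax proteins hold the clusters off or on. The Hox genes were found here as the probe sets that the array annotation assigns to exactly 1 gene named Hoxa, Hoxb, Hoxc or Hoxd with a number. There were 48 such probe sets for 33 genes, out of 34945 single-gene probe sets for 18193 genes. HoxA had 9 genes and 16 probe sets, HoxB 9 and 11, HoxC 7 and 11, and HoxD 8 and 10.

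The RNA came from C2C12 cells, a myoblast line from the thigh muscle of an adult mouse, in 2 groups of 2 cultures with 1 Affymetrix array each. Every culture carried a stable pLKO.1 lentiviral vector and was kept in DMEM with serum and puromycin. The vector control expressed a control hairpin, which the labels call scramble in one place and shLuc in another, and the other group expressed shSFMBT1 against Sfmbt1, a gene for an MBT-repeat protein related to Polycomb group proteins. The series calls the cultures independently grown but does not tell if each was transduced on its own, so the p-values may measure only the spread between cultures of 1 transduced population. As these are bulk cultures, fewer cells with a transcript and less of it per cell cannot be told apart.

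A signal was counted as above background when it exceeded, on its own array, the 95th percentile of the signals of 27 probe sets for bacterial transcripts. That limit was 49.1 and 53.2 on control arrays 1 and 2, and 69.3 and 42.9 on knockdown arrays 1 and 2. Knockdown array 1 therefore had the highest limit, and the lowest share of single-gene probe sets above it, 62.0% against 69.1% to 72.0% on the other arrays. Sfmbt1 itself was lower in the knockdown in 5 of 5 probe sets without overlap, as were 24% of all probe sets tested. Probe set 1422894 passed the test (241.7 and 277.9 in the control, 74.6 and 16 in the knockdown, limma adjusted p = 0.0219). Its probe sets 1422893, 1429749 and 1455412 did not pass (limma adjusted p = 0.0594, 0.333 and 0.339). Probe set 1443853 was in the background range on every array and was not tested. All 6 myoblast marker genes looked up (Myod1, Myf5, Cdh15, Des, Itga7 and Chrna1) were above background in every culture and 0 of them passed the test. The lowest p among these were those of Myod1 (log2 -0.31, limma adjusted p = 0.309) and Itga7 (log2 -0.27, limma adjusted p = 0.387). Of the 4 fibroblast, 3 adipocyte, 3 leukocyte and 3 endothelial marker genes on the array 0 were called either. Pdgfra, Dcn, Cebpa and Cd68 each had a probe set above background on all 4 arrays. No single probe set of Dpt, Lum, Fabp4, Cdh5 or Tek was above it on all 4, but each gene was on some arrays. Ptprc, Itgam, Pecam1 and Adipoq were in the background range on all 4 arrays. The log2 differences with the lowest p in these lists were -0.51 for Cebpa and 0.75 for Fabp4 (adipocyte, limma adjusted p = 0.131 and 0.382), 0.20 for Dcn and 0.05 for Pdgfra (fibroblast), -0.57 for Cd68 (leukocyte) and 0.53 for Cdh5 (endothelium). The Schwann and neural crest marker Sox10 was above background on all 4 arrays in 1 of its 3 probe sets, with 370.8 and 232.6 in the control, against 246 and 92.9 in the knockdown.

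In control myoblasts, the Hox genes above background were mainly those of HoxA and HoxC from group 5 to group 13. Of 33 genes, 16 had a probe set above background on both control arrays, 7 had one on 1 array only and 10 on neither. By cluster these were 7 of 9 HoxA genes (Hoxa3, Hoxa5, Hoxa7, Hoxa9, Hoxa10, Hoxa11 and Hoxa13), 6 of 7 HoxC genes (Hoxc5, Hoxc6, Hoxc8, Hoxc9, Hoxc10 and Hoxc13), 1 of 9 HoxB genes (Hoxb3) and 2 of 8 HoxD genes (Hoxd3 and Hoxd8). From group 5 onwards, 12 of 12 HoxA and HoxC genes were above background on both control arrays, against 1 of 11 HoxB and HoxD genes. In groups 1 to 4 the counts were 1 of 4 and 2 of 6. The pooling of clusters and the cut at group 5 were not among the planned comparisons, and they only describe these same signals. Counted by probe set, 22 of 48 (45.8%) were above background on both control arrays, against 64.3% of all single-gene probe sets. Just inside the limit lay Hoxa7, with 51.4 and 53.8, and just outside it lay Hoxb7, with 60.2 and 50.5.

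Read by paralogue group, the control had no gene above background on both arrays in groups 1, 2, 4 and 12. In group 3 all of Hoxa3, Hoxb3 and Hoxd3 were above it. From group 5 to group 7 the genes above it were Hoxa5 and Hoxc5 but not Hoxb5, Hoxc6 but not Hoxb6, and Hoxa7 but not Hoxb7. Both group 8 genes on the array, Hoxc8 and Hoxd8, were above it, Hoxd8 in 1 of its 2 probe sets. Among the 5′ groups it was Hoxa10 and Hoxc10 but not Hoxd10, Hoxa11 but not Hoxd11, and Hoxa13 and Hoxc13 but not Hoxb13 or Hoxd13.

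On these same arrays the split between clusters was seen with each of the other background limits tried, although the counts moved. With the highest bacterial control probe set as the limit, 9 of 12 HoxA and HoxC genes and 1 of 11 HoxB and HoxD genes from group 5 onwards were above it in the control. At the other end, a limit of the median plus 3 median absolute deviations gave 12 of 12 and 3 of 11. The whole comparison is of detection and not of level, since probe sets differ in how brightly they read the same amount of RNA, and a gene in the background range may still be transcribed.

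**Figure D1:**
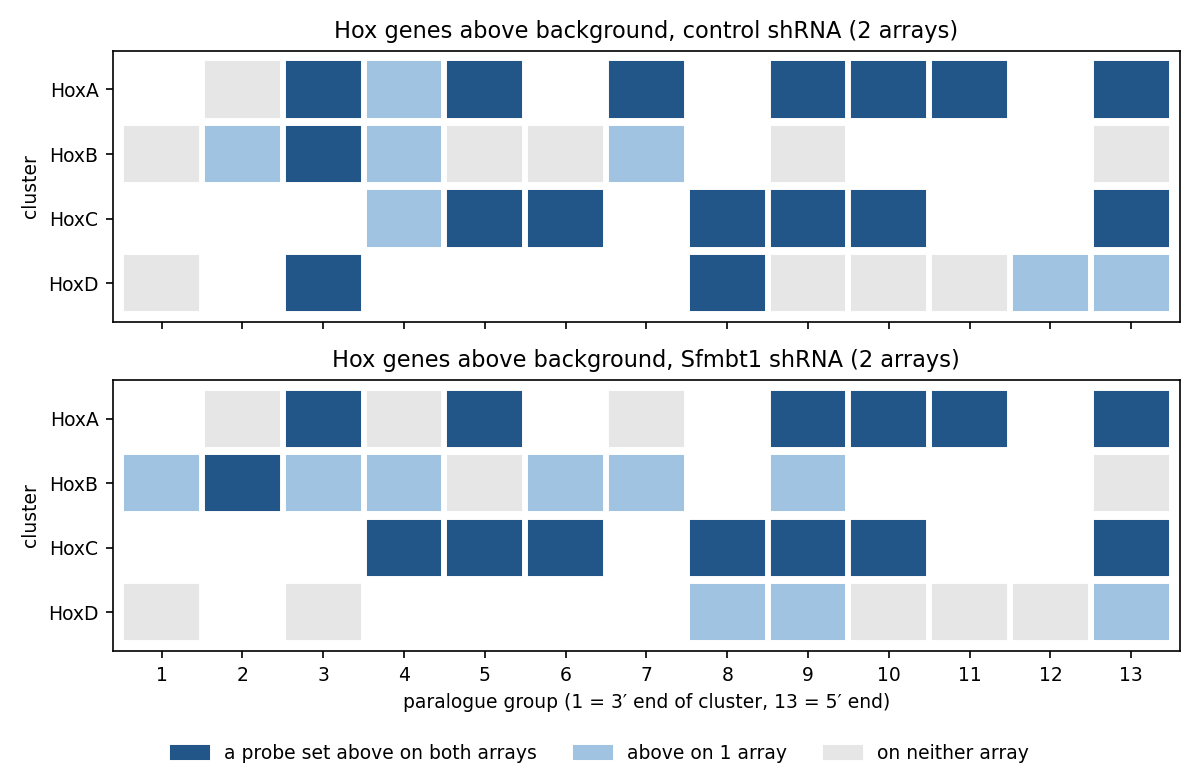
Hox genes by cluster (vertical axis) and paralogue group (horizontal axis), in the control (upper panel) and the knockdown (lower panel), 2 arrays each. Dark tiles are genes with a probe set above background on both arrays, pale blue tiles on 1 array and grey tiles on neither, and a blank is a group with no single-gene probe set or no gene. The dark tiles lie mostly in the HoxA and HoxC rows from group 5 to group 13 in both panels.

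Paralogue group 9 shows the split within a single group, since all 4 clusters have a member there on the array. Hoxa9, a regulator of blood progenitors and posterior patterning, and Hoxc9, which helps set thoracic identity, were above background on both control arrays, while Hoxb9 (12.9 and 11) and Hoxd9 (23 and 36.2) were on neither. RefSeq promoter windows (250 bases before to 50 after a start, GRCm38.p6) were given for 19 of the 33 genes, 21 windows in all. The windows of Hoxa9, at chr6:52227321-52227620 on the minus strand, and of Hoxd9, at chr2:74697513-74697812 on the plus strand, are shown because these 2 paralogues fell on opposite sides of background and have 1 window each. Capitals mark each CG dinucleotide, which counts equally on both strands.
Hoxa9: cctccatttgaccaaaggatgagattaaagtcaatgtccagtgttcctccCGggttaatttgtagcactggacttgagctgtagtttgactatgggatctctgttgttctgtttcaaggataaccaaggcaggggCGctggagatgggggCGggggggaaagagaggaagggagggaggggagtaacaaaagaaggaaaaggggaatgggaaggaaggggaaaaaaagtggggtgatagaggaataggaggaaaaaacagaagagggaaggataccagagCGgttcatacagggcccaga
Hoxd9: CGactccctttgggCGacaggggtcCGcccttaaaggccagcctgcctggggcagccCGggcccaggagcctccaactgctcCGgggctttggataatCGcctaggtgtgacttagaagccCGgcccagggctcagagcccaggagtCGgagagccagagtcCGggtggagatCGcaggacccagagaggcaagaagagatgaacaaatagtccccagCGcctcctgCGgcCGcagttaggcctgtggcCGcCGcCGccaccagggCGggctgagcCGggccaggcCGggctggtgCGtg
The window of Hoxa9 held 4 CG dinucleotides and that of Hoxd9 held 20. Over all 21 Hox windows the median was 15, with a range of 4 to 45, against a median of 7 over 32851 promoter windows of the same length. The 10 windows of genes above background on both control arrays had a median of 17.5 and the other 11 a median of 14, so this pair does not stand for the rest. The letters TATAAA, searched on both strands, were in 2 of the 21 windows (9.52%, one of Hoxa10 and that of Hoxd13), against 13.6% of all windows.

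Of the 16 Hox genes above background on both control arrays, 12 were also above it on both knockdown arrays, which was 12 of 13 for HoxA and HoxC and 0 of 3 for HoxB and HoxD. By probe set this was 16 of 22, against 20170 of the 22455 single-gene probe sets above background on both control arrays. The 3 HoxB and HoxD genes, Hoxb3, Hoxd3 and Hoxd8, read 62.9 to 84.1 in the control, and the limit of knockdown array 1 was 69.3. On knockdown array 2, with a limit of 42.9, Hoxb3 read 27.3, Hoxd3 42.2 and Hoxd8 79.3. Hoxa13 and Hoxc5, with 63.9 to 83.1 in the control, were above the limits on both knockdown arrays. Hoxa7, with 51.4 and 53.8 in the control, was on neither. Whether the clusters differ in the knockdown was not tested. In the test between groups 0 of 22 tested Hox probe sets was called. A call was a Benjamini-Hochberg adjusted p under 0.05 in limma, fitted to log2(signal + 16) over the 22893 single-gene probe sets in the upper 60% of mean signal, of which 548 (2.39%) were called. The lowest unadjusted p among the Hox probe sets was 0.0762, so 0 of 22 also lay under an unadjusted 0.05, against 15.5% of all probe sets tested. The median absolute log2 difference was 0.24 for the Hox probe sets and 0.21 over all probe sets tested. The median SE of the Hox probe sets was 0.29, and that over all probe sets tested is not given here. Whether the Hox probe sets differ from the others in size of change or in noise was not tested. The 26 other Hox probe sets were too dim for the filter. A single probe set compared by an exact permutation test cannot give a two-sided p under 0.333 with 2 arrays against 2, which is why the fit across probe sets was used.

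Genes above background on both arrays of both groups numbered 12, namely Hoxa3, Hoxa5, Hoxa9, Hoxa10, Hoxa11, Hoxa13, Hoxc5, Hoxc6, Hoxc8, Hoxc9, Hoxc10 and Hoxc13. In the knockdown alone 14 genes met the limit on both arrays. Hoxa7, Hoxb3, Hoxd3 and Hoxd8 did so in the control but not in the knockdown, and Hoxb2 and Hoxc4 in the knockdown but on only 1 control array. Per array, the Hox probe sets above background numbered 29 and 24 for the control arrays, and the knockdown arrays bracketed these with 19 and 30.

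Among the HoxA genes of the middle and 5′ part, Hoxa11, which patterns the lower limb segment and is also transcribed in limb muscle precursors, read 830 and 858.2 in control cultures and 944.6 and 979.4 in knockdown cultures. The groups did not overlap, but the difference of 0.19 log2 units did not pass (SE 0.14, 95% interval -0.12 to 0.49, limma adjusted p = 0.575). Hoxa10, a gene of lumbar and limb patterning, read 371 and 415.9 in the control, and in the knockdown 498.6 and 454 in probe set 1431475 (log2 0.27, SE 0.17, interval -0.10 to 0.64, limma adjusted p = 0.495). Both knockdown cultures were thus above both control cultures for Hoxa11 and for this probe set of Hoxa10, by less than the fit could separate from the spread.

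Hoxa9 had 2 probe sets with signals well above the limits. In 1421579 the control read 603.1 and 618.5 and the knockdown 541.4 and 590.5 (log2 -0.11, interval -0.44 to 0.23). In 1455626 it read 562 and 497.2 in the control, against 439.9 and 567.3 in the knockdown (log2 -0.08, interval -0.47 to 0.31). The groups overlapped in the second probe set and lay apart by a small margin in the first.

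Hoxa5, which acts in lung and axial patterning, read 430.2 and 440.2 in control cultures and 425.1 and 519.3 in knockdown cultures in probe set 1443803, whose suffix marks probes that may match other transcripts. In probe set 1448926 it read 165.3 and 114.4 against 163.6 and 275.8 (log2 0.57, SE 0.29, interval -0.07 to 1.22, limma adjusted p = 0.387), the lowest p of the Hox probe sets. That value came mainly from knockdown array 2, and the difference was 0.22 without that array and 0.92 without knockdown array 1. Hoxa13, the gene of the digits and the genital tubercle, read 63.9 and 83.1 against 78.5 and 99.7, above the limit on each array, and the groups overlapped.

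Hoxa3, a gene of the pharyngeal organs, is the anterior exception among the genes detected in all cultures. Its probe sets 1427433 (57.7 and 63.9 in the control, 79.4 and 74 in the knockdown) and 1431392 (57.8 and 98.7, then 105.5 and 91.4) were above the limits on all 4 arrays. Probe set 1452421, designed from the same source sequence as 1427433, read 144.9 and 118.7 in the control, and in the knockdown 15.4 and 126.9. Its low value came from knockdown array 1 alone, and the log2 difference of -1.14 (SE 0.59, limma adjusted p = 0.388) became -0.04 without that array. Without knockdown array 2 it became -2.23 (limma adjusted p = 0.00178), the only call of a Hox probe set in any alternative. The remaining probe set, 1429398, was above background on 1 array of each group.

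Among the HoxC genes, Hoxc6, a thoracic patterning gene, read 489.4 and 428.6 in the control, against 440 and 502.1 in the knockdown in probe set 1427361, a log2 difference of 0.04 (interval -0.34 to 0.41). Probe set 1427362 read 475.7 and 394.2, then 415.3 and 450.2 in the knockdown, and gave -0.002 (interval -0.38 to 0.38), while 1427454 was in the background range on 3 arrays and read 78.9 on knockdown array 2. Hoxc10, a gene of lumbar motor neurons and the hindlimb region, read 1046.8 and 864.2 against 888.8 and 1160.2 (log2 0.09, interval -0.27 to 0.46). In both genes the groups overlapped, and the intervals leave out a change of 2-fold in either direction.

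Hoxc8, which acts in the brachial and thoracic region, read 125.1 and 152.6 in control cultures and 116.1 and 145 in knockdown cultures (log2 -0.08, interval -0.70 to 0.54). Hoxc9 read 394 and 181.8 against 309.6 and 335.3. The 2 control cultures of Hoxc9 differed more from each other than from the knockdown, so that the log2 difference of 0.25 was 0.77 without control array 1 and -0.28 without control array 2. Hoxc13, a gene of hair and nail, likewise varied within the control (145.8 and 290.8, against 209.3 and 261.1 in the knockdown), and its log2 difference of 0.17 was -0.30 without control array 1 and 0.63 without control array 2.

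Hoxc5 read 74.1 and 76.5 in the control, and in the knockdown 89.3 and 104.7 in probe set 1439885, without overlap (log2 0.30, interval -0.49 to 1.10). Its probe sets 1450832 and 1456301 were in the background range on all 4 arrays, so the detection of Hoxc5 rests on 1 of 3 probe sets. Hoxc4, the most 3′ gene of its cluster, read 48.9 and 170 in the control, against 70.8 and 156.6 in the knockdown, a spread within each group larger than the log2 difference of 0.16, which was -0.60 without control array 1 and 0.92 without control array 2.

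**Figure D2:**
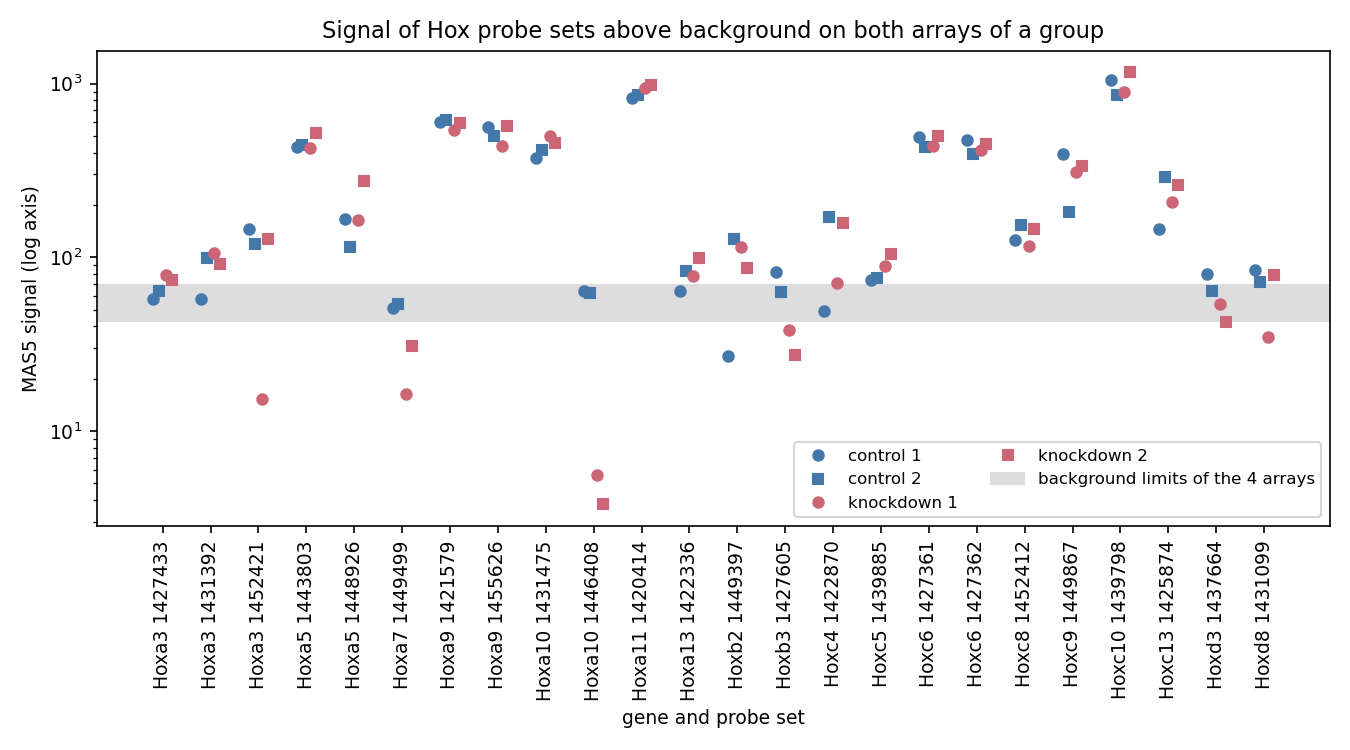
MAS5 signal (log axis) of the 24 Hox probe sets above background on both arrays of at least 1 group, with 1 point per culture, control in blue and knockdown in red. The grey band spans the background limits of the arrays, 42.9 to 69.3, and Hoxa11, Hoxc10, Hoxa9 and Hoxc6 lie far above it in all 4 cultures.

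**Figure D3:**
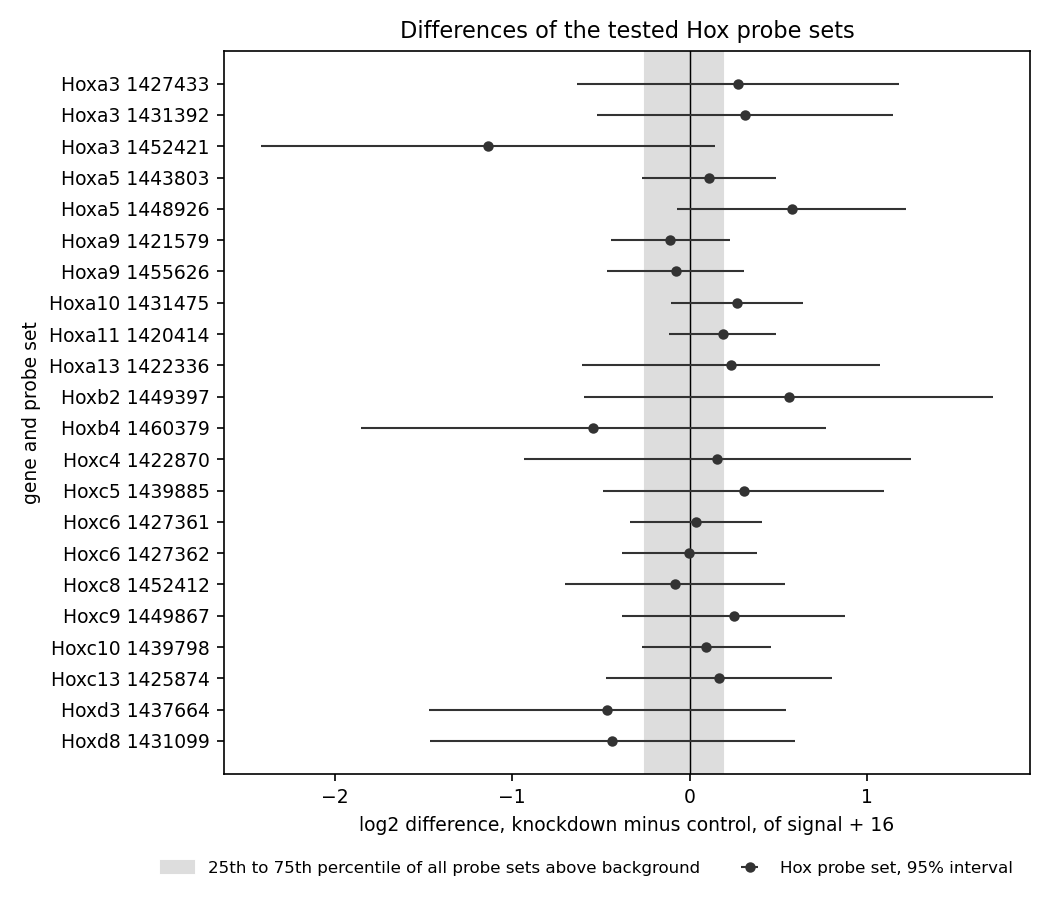
Log2 difference, knockdown minus control, of the 22 tested Hox probe sets, with bars for the 95% interval from limma. The grey band is the range from the 25th to the 75th percentile of the difference over 23376 single-gene probe sets above background, -0.25 to 0.19, and every interval includes 0.

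The 24 Hox probe sets that were above background on both arrays of at least 1 group had a median log2 difference of 0.10, with 14 of 24 positive, against a median of -0.01 over the 23376 single-gene probe sets chosen in the same way. The Hox median was -0.09 without control array 2, -0.06 without knockdown array 2 and 0.25 without knockdown array 1, so its sign depended on single arrays. Of the 16 above background on all 4 arrays 12 had a positive difference, with a median of 0.18 and values from -0.11 to 0.57, against a median of 0.0044 over the 20170 single-gene probe sets above background on all 4 arrays. Groups did not overlap, with the knockdown higher, in 4 of the 22 tested Hox probe sets (21.6% of all tested) and, with the knockdown lower, in 2 (24% of all tested), shares at or under the background. The intervals of 11 of the 22 lay within a 2-fold change either way, and the remaining 11 did not have the precision for that.

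Near the background limits, 4 Hox probe sets were above background on both control arrays and on neither knockdown array, a pattern of 1.33% of all single-gene probe sets. The reverse was found in 0 of 48 (0.555% of all). Hoxa7 read 51.4 and 53.8 in control cultures and 16.3 and 30.9 in knockdown cultures. Hoxb3, in probe set 1427605, read 82.3 and 62.9 against 38.1 and 27.3. With the limits in place of the knockdown signals it was at least 1.24-fold lower in the mean over arrays, with no allowance for the spread between cultures. The 62.9 lay under the limit of knockdown array 1. Hoxd3 read 80.2 and 64.4 against 53.8 and 42.2 (log2 -0.46, interval -1.47 to 0.54, limma adjusted p = 0.692). The 53.8 of Hoxd3 on knockdown array 1 was under that array's limit of 69.3 but over the limits of the other 3 arrays.

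The fourth was Hoxa10 probe set 1446408, with 63.6 and 62.4 in the control, and in the knockdown 5.6 and 3.8. Both control signals lay under the limit of knockdown array 1, 69.3, so no bound is given for this difference. Its brighter companion 1431475 read higher in both knockdown cultures, so the 2 probe sets of Hoxa10 disagreed in direction. The dim one did not reach the filter, and with no filter its limma adjusted p was 0.116. With 1 common limit for all arrays 3 of the 4 were left (Hoxa10, Hoxb3 and Hoxd3), with the 90th percentile of the bacterial control probe sets 2 (Hoxa10 and Hoxb3), with the highest of them 1 (Hoxb3), and with the median plus 3 median absolute deviations 1 in this direction (Hoxa10) and 1 in the other.

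**Figure D4:**
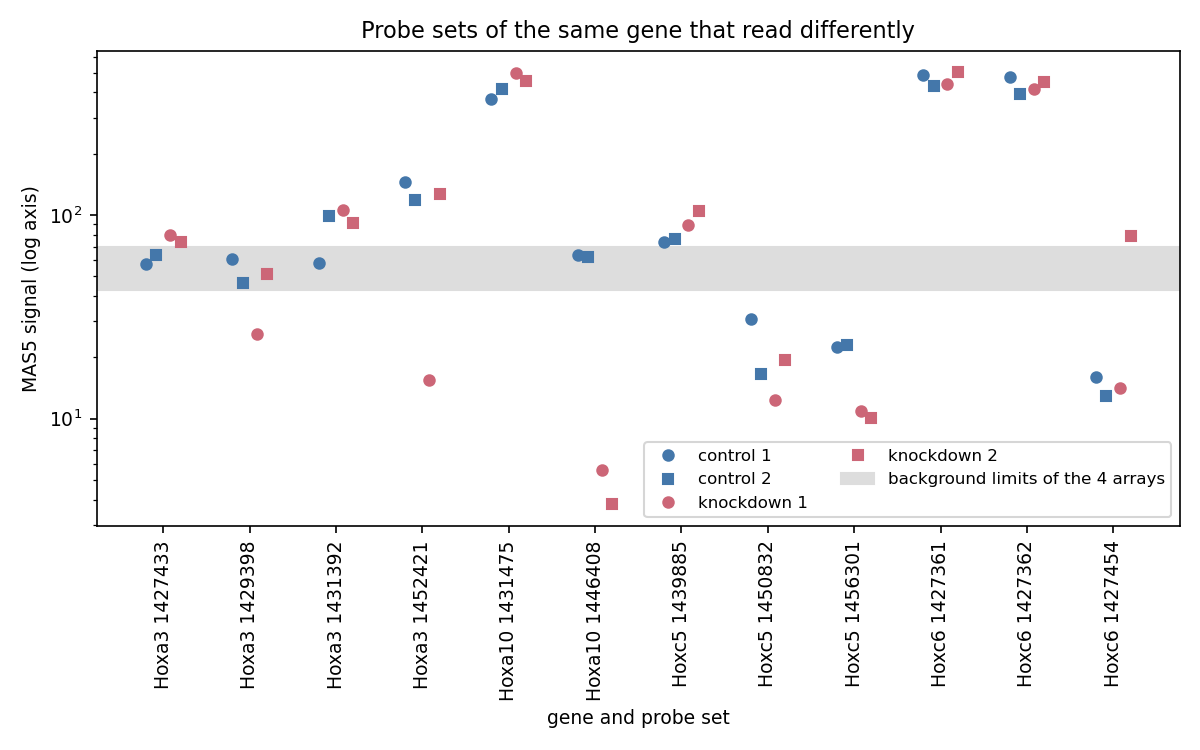
MAS5 signal (log axis) of all probe sets of Hoxa3, Hoxa10, Hoxc5 and Hoxc6, with 1 point per culture, control in blue and knockdown in red, and a grey band for the background limits of the 4 arrays. Probe sets of the same gene lie on both sides of the band, and for Hoxa10 the bright and the dim probe set differ in opposite directions.

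Most HoxB and HoxD genes gave no steady signal in either group. Hoxb5 (4.9 and 5.1 in the control, 10.4 and 7.8 in the knockdown), Hoxb13, Hoxd1, Hoxd10 (3.1 and 8.4, then 0.8 and 17.5) and Hoxd11 (5.4 and 8.5, then 10.5 and 4.7) were in the background range on all 4 arrays, as was Hoxa2. Hoxb1, Hoxb6, Hoxb9 and Hoxd9 were above background on knockdown array 2 alone, with 59.9, 51.7, 57 and 96.9. That array had the lowest limit, 42.9, but only the 51.7 of Hoxb6 lay under a control limit, the 53.2 of control array 2. The 96.9 of Hoxd9 lay over the limits of all 4 arrays. Hoxd12 (72.7, then 12.2, 15.1 and 10.4) and Hoxa4 were above it on control array 1 alone. Hoxd13, the gene of the digits, read 66.3 and 10 in the control, against 58.7 and 71.1 in the knockdown in probe set 1440626 and was in the background range throughout in 1422239.

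Other HoxB and HoxD members changed sides from array to array. Hoxb4, which promotes self-renewal of blood stem cells, read 148.4 and 48.6 in control cultures and 24.4 and 107.6 in knockdown cultures in probe set 1460379, and 89.8 and 48.4 against 12.7 and 97.8 in 1451761, which comes from the same source sequence. Both probe sets were high on control array 1 and knockdown array 2. Hoxb2, a hindbrain gene, read 27 and 128.1 against 114 and 87.2 (log2 0.56, SE 0.53), a difference that was -0.32 without control array 1 and 1.43 without control array 2. Hoxb7 read 60.2 and 50.5 against 74 and 23. Hoxb3 had a second probe set, 1456229, that was above background on knockdown array 2 alone, with 136.4. Hoxd8, in probe set 1431099, read 84.1 and 72.1 in the control, and in the knockdown 34.6 and 79.3. Its log2 difference of -0.44 was 0.02 without knockdown array 1 and -0.89 without knockdown array 2. The other Hoxd8 probe set, 1433638, was in the background range on every array.

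Probe sets that the annotation shares between neighbouring Hox genes were left out of the counts. The one for Hoxb8 and Hoxb7 read 52.1 and 9.5, then 28.8 and 18 on the knockdown arrays, and both for Hoxd4 and Hoxd3 were in the background range on all 4 arrays. Of 19 antisense, long noncoding and microRNA genes of the clusters that were looked up, 3 were on the array. Hoxa11os, the antisense transcript at Hoxa11, read 362.2 and 392.2 in the control, against 347.8 and 362.1 in the knockdown in probe set 1452400 (log2 -0.08, limma adjusted p = 0.878), and its other probe set was in the background range. Hoxb5os read 129.4 and 144.5 against 42.6 and 80.7 (log2 -1.02, SE 0.38, limma adjusted p = 0.213), and with the limit in place of knockdown array 1 it was at least 1.68-fold lower. Hoxd3os1 read 80 and 58.2 against 22.3 and 33.3 in probe set 1430263, and its other probe set was in the background range on all arrays. The groups thus did not overlap for Hoxb5os or for this probe set of Hoxd3os1, but neither was called, and the second was too dim for the filter.

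Among genes that work with or around the Hox genes, few were called. TALE homeodomain proteins bind DNA together with Hox proteins, and 7 of the 8 such genes on the array were above background in both groups, with 0 of 18 tested probe sets called. Meis2 came closest, with 782.6 and 782.1 in control cultures and 1089.6 and 1198.7 in knockdown cultures in probe set 1417129 (log2 0.54, SE 0.14, limma adjusted p = 0.0721). A second probe set of Meis2, 1457632, gave 0.63 (limma adjusted p = 0.0649), and 2 others gave -0.19 and 0.21. Next came Pknox2, with a log2 difference of -0.42 in probe set 1428017 (limma adjusted p = 0.442) and -0.04 in its other probe set.

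Of 16 upstream regulators of Hox genes, with 22 tested probe sets, 1 probe set was lower and 0 higher. It belonged to Rarg, a retinoic acid receptor, with 1390.3 and 1284.3 in the control, and in the knockdown 814.3 and 678.8 in probe set 1419416 (log2 -0.83, SE 0.15, limma adjusted p = 0.0152). The other Rarg probe set did not pass (log2 -0.48, limma adjusted p = 0.167), and the call was lost without control array 1 (0.0565), with no filter (0.0823) and without the variance trend (0.246). Kdm6a, an H3K27 demethylase gene, had a difference of -0.65 in probe set 1427672 (limma adjusted p = 0.0983) and of -0.03 in 1427235 (limma adjusted p = 0.966), and its other 2 probe sets were in the background range. Cdx1 and Cdx4, caudal genes that switch on posterior Hox genes in the embryo, were in the background range on all arrays.

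Of 9 limb genes outside the clusters, 5 were above background on both control arrays and 3 on both knockdown arrays. Over all single-gene probe sets the shares were 64.26% and 60.35%. Msx2 in probe set 1449559 (53.3 and 56.8 in the control, 53.4 and 48 in the knockdown) was under the limit on knockdown array 1 only. So was Tbx5 in probe set 1425695 (59.1 and 138.5, then 25.3 and 117.1). Tbx4, a hindlimb gene, was in the background range on all 4 arrays, and Pitx1, which specifies the hindlimb, was above it on 1 array of each group in 1 of 2 probe sets. The forelimb gene Tbx5 was above background on 3 arrays in 1 of its 2 probe sets and on none in the other. Shox2, a gene of the upper limb segment, was above background in all cultures, with 996.3 and 971.3 in the control, against 795 and 855.9 in the knockdown in probe set 1438042 (log2 -0.25) and -0.78 in 1420559 (limma adjusted p = 0.175). Lbx1, a gene of migrating limb muscle precursors, had a difference of 0.55 in probe set 1422323 (limma adjusted p = 0.460) and 0.10 in the other. None of the 7 tested probe sets of this list was called, and in the same test 0 of 18 probe sets of genes that flank the clusters was called, the lowest p being that of Cbx5 (log2 -0.62 in probe set 1421933, limma adjusted p = 0.0796, with values from -0.41 to 0.32 in its other 4 probe sets) and the next that of Lnpk (log2 0.65, limma adjusted p = 0.0825).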

How the data were processed

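Per the submitters' processing notes, which name MAS5 and GCOS without versions, the authors deposited 1 linear intensity per probe set and array. No source used here states a scaling between arrays. MAS5 subtracts mismatch signal, so dim values are noisy, which the pseudocount and the filter address. Probe sets were named by the array annotation, checked against RefSeq (34741 of 34945 matched by gene identifier, 0 symbols changed). Differences of log2(signal + 16) were tested with limma 3.58.1 (lmFit, eBayes with a variance trend) in R 4.3.3, with 2 residual degrees of freedom plus a prior of 9.6. The filter kept probe sets with a mean of at least 57.3. The steps were tested on simulated data. The number of arrays limits the precision. Bounds ("at least") put signals in the background range at their array's limit, on the log2(signal + 16) scale. They concern the difference of the group means on these arrays and do not include the spread between cultures.

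The members, gene lists and tests were chosen with earlier results of these data known. Values on every array are given for Hox probe sets above background on both arrays of a group, and for each other list the called genes and the 2 of lowest p are named. Other Hox genes were named after their values were seen. Alternatives covered the pseudocount, filter, scaling, variance trend, probe set choice, background limit, replicate block and each array left out.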

Additional observations from a re-analysis of the deposited data

How the results depend on the processing

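The count of Hox probe sets called, 0, was 0 in 13 of 14 alternatives. Leaving out each array in turn gave 0 to 1 calls, the 1 being Hoxa3 probe set 1452421 without knockdown array 2. At an unadjusted p under 0.05 the Hox count was 1 of 48 with no filter and 1 to 3 with 1 array left out, and 0 in the other alternatives. Over all probe sets the 548 calls became 63 with no filter, 948 with the upper 40% filter and 0 without the variance trend in limma (2913 at an unadjusted p under 0.05), and 338 to 1455 with 1 array left out. The sample titles number the cultures as biological replicates and do not tell whether same-numbered cultures were handled together. With the replicate number as a block 857 probe sets were called and again 0 of the Hox probe sets, and deviations of same-numbered arrays correlated at r = 0.0095 across probe sets. The 18 Hox probe sets above background in the knockdown became 29 with a limit of the median plus 3 median absolute deviations and 19 to 30 with 1 array left out, 30 being without knockdown array 1. For the control the same count, 22, ran from 15 to 31. The alternatives for the knockdown and the common limit for all arrays were chosen after seeing the data. The number of arrays and signals near background limit what could be detected.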
